A study of Mus musculus with 9 samples.

Results

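The washout of auxin from Suz12-AID mouse embryonic stem cells was examined by comparing the 3 Reintroduction libraries with the 3 Auxin libraries, 6 of the 9 libraries of the study, over every gene counted. The cells were of the J1 line and of the genotype Suz12-AID, in which Suz12, an essential part of Polycomb repressive complex 2 (PRC2), carries a degron that leads to destruction of the protein while auxin is present. Auxin cells received 50 µM indole-3-acetic acid for 96 h. Reintroduction cells had the same exposure, followed by a washout of 4.5 h. The 3 Mock libraries, of the same genotype, are set beside them as the level without auxin. All groups were grown on gelatin in serum medium (15% FBS) with LIF and the 2i inhibitors PD0325901 (1 µM, against MEK) and CHIR99021 (3 µM, against GSK3). Each group holds 3 biological replicates according to the design text, although the labels name no separate clones, cultures or dates. No group without auxin went through the washout, so the loss of auxin, the return of the Suz12 protein and the handling of the cells at washout cannot be told apart.

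PRC2 methylates histone H3 and holds developmental genes such as the Hox genes silent in embryonic stem cells. Several of the functions described here answer to systems that read the state of the cell within hours. The integrated stress response works through translation of the transcription factor Atf4, which turns on amino acid synthesis, uptake and tRNA charging, and through its partner Ddit3. Sterol shortage releases the SREBP factors (encoded by Srebf1 and Srebf2) to activate cholesterol and fatty acid synthesis, unfolded protein activates Hsf1 in the cytosol and Atf6 and Xbp1 in the endoplasmic reticulum, and the factors Tfeb and Tfe3 drive lysosomal genes when nutrient signalling through mTORC1 is low.

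Polyadenylated RNA was sequenced in 75 bp paired-end reads, and the libraries held 63471903 to 76480171 counted reads in Auxin and 44341283 to 80904523 in Reintroduction. Levels are given in CPM, read counts put on a common library size with TMM factors. Differences are log2 fold changes of Reintroduction against Auxin from edgeR's quasi-likelihood test. Their standard errors (SE) were derived from that test, as the size of the log2 fold change over the square root of the F statistic. A gene was called changed at a Benjamini-Hochberg adjusted p-value under 0.05 over 20838 genes tested. Libraries correlated at 0.989 to 0.995 within Auxin, at 0.992 to 0.994 within Reintroduction and at 0.97 to 0.977 between the groups (Pearson's r of log2 CPM over genes, which are not independent replicates). Auxin replicate 2 stood apart from the other Auxin libraries in its dependence on gene length, with a slope of 0.0133 log2 units per doubling of length against 0.15 and 0.154, and 0.0833 to 0.0968 in Reintroduction. In Mock the slopes had the opposite sign, at -0.246, -0.168 and -0.177. Values set beside Mock below are not corrected for this, and how far they follow gene length was not tested. Mouse embryonic stem cell markers were abundant in all 6 libraries, their summed level being 6158 to 6697 CPM in Auxin and 4800 to 4881 CPM in Reintroduction.

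Within 4.5 h of washout, 10613 genes were called changed, 50.9% of those tested. Of these, 5305 rose (25.5%) and 5308 fell (25.5%), and the median log2 fold change over all genes tested was 0.0027. Changes of at least 2-fold were fewer, with 867 genes higher (4.16%) and 1422 lower (6.82%). Because calls were this common in both directions, counts in the gene lists below are read against these shares. Scaling by total counts instead of TMM moved the median of all genes to -0.077 and the split to 4279 higher against 6393 lower. Each list is described by its counts and its median and was given no test of its own.

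**Figure D1:**
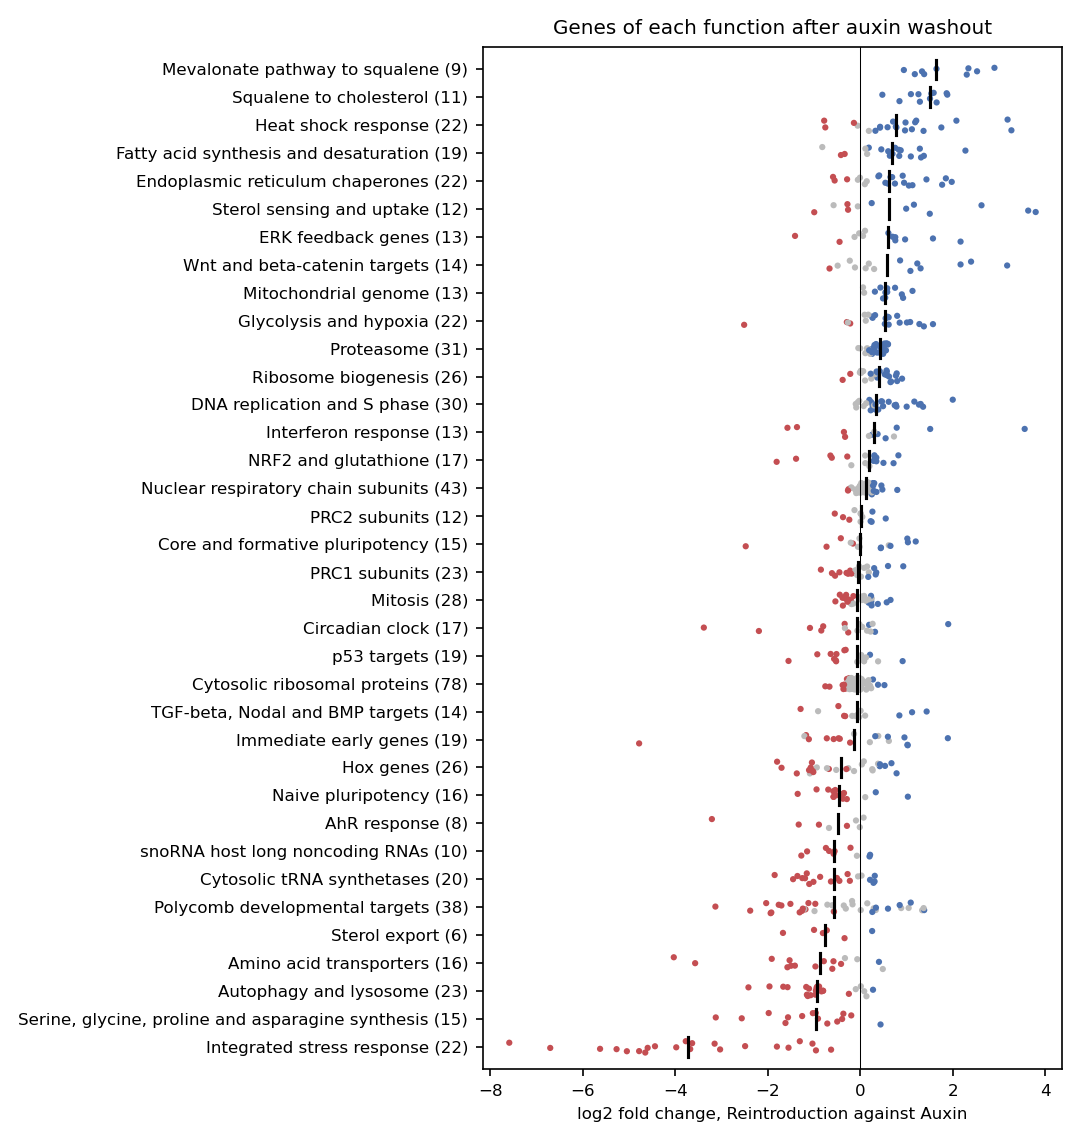
Log2 fold change of Reintroduction against Auxin for the tested members of 36 gene lists, ordered by list median (black bar), with the number of tested members in brackets. Blue points are genes called higher, red points genes called lower and grey points genes that did not pass. The integrated stress response list lies lowest, with a median of -3.73, and the mevalonate list highest, with a median of 1.65.

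The Suz12 transcript itself, counted over the gene at chromosome 11, 79993106 to 80034123 (mm10; ENSMUSG00000017548.15), is not the target of the degron, which acts on the protein. It stood at 149.8, 122 and 152 CPM in the Auxin libraries and at 166, 173 and 164 CPM in the Reintroduction libraries. Every Reintroduction library was above every Auxin library, by 0.25 ± 0.0803 (SE, adjusted p = 0.0245). The call was lost in 7 of the alternative settings, among them the fits without Reintroduction replicate 1 (adjusted p = 0.0711), 2 (adjusted p = 0.0773) or 3 (adjusted p = 0.0628). Suz12 shares exon sequence with another gene, so part of its reads may have been left uncounted. The transcript level does not bear on whether the protein was degraded or returned.

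Of the functions listed, the integrated stress response fell furthest by its median. All 22 tested members of this list were called lower, with a median log2 fold change of -3.73. The same list stood 3.94 above Mock in Auxin and 0.1 from Mock in Reintroduction, as medians on the log2 scale. Single members differed from Mock in Reintroduction, with 7 called higher and 9 lower. Over the 20838 genes tested, 7225 were higher and 6966 lower in that comparison. These comparisons share libraries, so the values are given side by side only. Chac1, a glutathione-degrading enzyme and a common readout of this response, fell furthest of all genes tested. It stood at 60.3, 73.3 and 60.4 CPM in Auxin and at 0.439, 0.245 and 0.282 CPM in Reintroduction. No Reintroduction library came near the Auxin range, and the log2 fold change was -7.59 ± 0.178 (SE, adjusted p = 3.99e-10). In Mock its mean was 0.805 CPM.

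Atf4, the central factor of the response, stood at 564, 675 and 554 CPM in Auxin and at 172, 169 and 173 CPM in Reintroduction. The Atf4 transcript was therefore lower in all 3 washed libraries, the change being -1.8 ± 0.0777 (SE, adjusted p = 2.00e-08), and below the Mock mean of 241 CPM as well. For Ddit3, which encodes the factor CHOP, the levels were 66.5, 77 and 66.2 CPM in Auxin and 5.16, 4.54 and 5.51 CPM in Reintroduction, a change of -3.77 ± 0.0909 (SE, adjusted p = 4.31e-10). Ddit3 shares exon sequence with another gene. Trib3, a pseudokinase induced by Atf4 and CHOP, went from 193, 216 and 194 CPM to 8.26, 8.09 and 8.47 CPM, a change of -4.6 ± 0.0862 (SE, adjusted p = 1.25e-10). Its 3 washed libraries differed from each other by far less than from any Auxin library.

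Further members of the list fell as well. Atf3, a stress-induced bZIP factor, changed by -4.78 ± 0.158 (SE, adjusted p = 3.16e-09) from a mean of 31.7 to 1.16 CPM. Ddit4, an inhibitor of mTORC1, changed by -4.65 ± 0.184 (SE, adjusted p = 1.07e-08) from 311 to 12.4 CPM. Nupr1, a small nuclear stress protein, changed by -4.44 ± 0.119 (SE, adjusted p = 8.10e-10) from 136 to 6.23 CPM. The secreted factors Inhbe (14.8 to 0.134 CPM) and Adm2 (7.82 to 0.166 CPM) and the lipoprotein receptor gene Vldlr (56.3 to 1.68 CPM) changed by -6.71 ± 0.288 (SE, adjusted p = 2.00e-08), -5.63 ± 0.253 (SE, adjusted p = 2.60e-08) and -5.05 ± 0.147 (SE, adjusted p = 1.32e-09). Herpud1, a component of endoplasmic reticulum degradation, changed by -3.03 ± 0.0703 (SE, adjusted p = 3.99e-10), from 60.7, 67.5 and 58.9 CPM to 7.34, 7.71 and 7.84 CPM.

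The promoter of Chac1 is shown because it holds the composite C/EBP-ATF element that Atf4-containing dimers are known to bind. The element was searched as TGATGNAAN on both strands of the 300 bases around the RefSeq start of each gene (GRCm38.p6, the assembly of the mm10 build). It was present in 9 of 21 promoters of the stress response list (42.9%), against 4.5% of 27025 genes with a RefSeq promoter. In Chac1 (chr2:119350992-119351291, plus strand) the match, in capitals and on the opposite strand, begins at position -194 from the start.

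Chac1: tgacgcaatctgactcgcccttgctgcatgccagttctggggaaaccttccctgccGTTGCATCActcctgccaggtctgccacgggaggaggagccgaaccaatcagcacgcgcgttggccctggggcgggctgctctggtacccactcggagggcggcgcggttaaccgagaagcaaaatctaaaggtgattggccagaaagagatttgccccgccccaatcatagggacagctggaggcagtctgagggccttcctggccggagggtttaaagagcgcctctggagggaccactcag

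A match is a description of the sequence and does not show that a factor is bound there. Here and below, motif shares of a list and of all promoters are set side by side only. They were not tested, and the lists were chosen with earlier results of these data known.

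**Figure D2:**
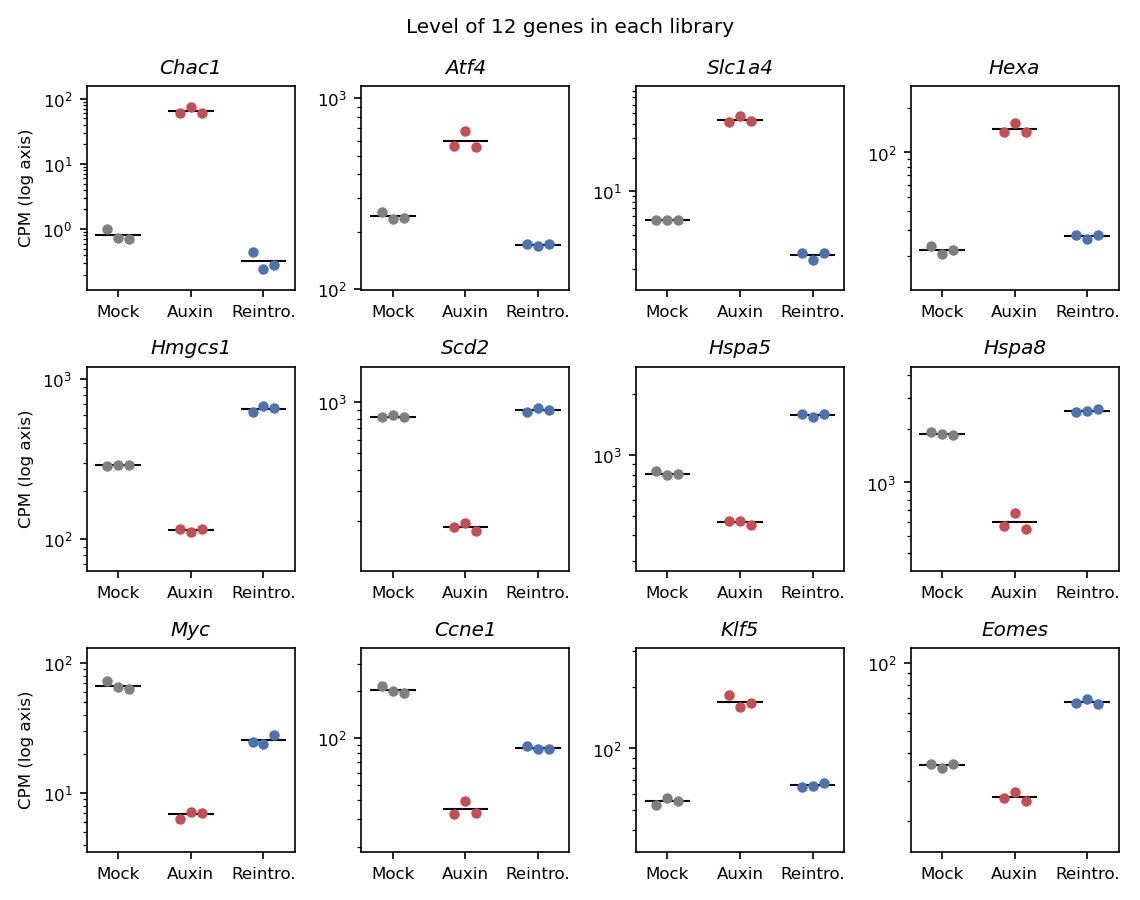
CPM of 12 genes in each of the 9 libraries on a log axis, with 3 points per group and a bar at the group mean (Reintro. stands for Reintroduction). For each gene the 3 washed libraries lie apart from the 3 Auxin libraries, below them for Chac1, Atf4, Slc1a4, Hexa and Klf5 and above them for the other genes.

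Genes for making, importing and charging amino acids fell with them. Of 15 tested genes in the list for serine, glycine, proline and asparagine synthesis, 14 fell and 1 rose (median -0.96). The list is wider than its name and also holds genes such as Gpt2, Mthfd2 and Cth. The alanine transaminase gene Gpt2 stood at 181, 192 and 173 CPM in Auxin and at 21.3, 19.7 and 21.5 CPM in Reintroduction, a change of -3.13 ± 0.0615 (SE, adjusted p = 1.58e-10) that brought it below its Mock mean of 26.2 CPM. Mthfd2, a mitochondrial enzyme of one-carbon metabolism, went from 278, 319.8 and 269 CPM to 47.1, 50.1 and 49.5 CPM, a change of -2.56 ± 0.0718 (SE, adjusted p = 1.14e-09). Aldh18a1, which begins proline synthesis, changed by -1.98 ± 0.0575 (SE, adjusted p = 1.32e-09), and Cth, which makes cysteine from cystathionine, by -1.56 ± 0.0609 (SE, adjusted p = 9.39e-09).

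Among amino acid transporters, 12 of 16 fell, 1 rose and 3 did not pass (median -0.88). Slc1a4, a carrier of alanine, serine and cysteine, stood at 41.6, 47.4 and 42.6 CPM in Auxin and at 2.79, 2.38 and 2.79 CPM in Reintroduction. This was a change of -4.03 ± 0.0825 (SE, adjusted p = 1.61e-10), and all 3 washed libraries were below the Mock mean of 5.51 CPM. The glycine carrier Slc6a9 went from 20.7, 20.1 and 20.5 CPM to 1.47, 1.65 and 2.01 CPM (-3.57 ± 0.115 SE, adjusted p = 2.63e-09). The glutamine carrier Slc1a5 changed by -1.58 ± 0.0536 (SE, adjusted p = 3.70e-09) and the large neutral amino acid carrier Slc7a5 by -1.53 ± 0.066 (SE, adjusted p = 2.01e-08).

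The cytosolic tRNA synthetases, which load amino acids onto tRNA, split by gene. Of 20 tested, 14 fell, 4 rose and 2 did not pass (median -0.57). The list lay 0.35 above Mock in Auxin and -0.48 from Mock in Reintroduction. Cars, for cysteine, stood at 157, 178 and 154 CPM in Auxin and at 45.5, 44.5 and 45.5 CPM in Reintroduction (-1.85 ± 0.0609 SE, adjusted p = 3.13e-09). Yars, for tyrosine, changed by -1.45 ± 0.073 (SE, adjusted p = 5.95e-08), Mars, for methionine, by -1.2 ± 0.0608 (SE, adjusted p = 6.52e-08), and Nars, for asparagine, by -1.16 ± 0.0527 (SE, adjusted p = 2.82e-08). The 4 that rose were Farsa, Hars, Kars and Qars, named after their values were seen, with log2 fold changes of 0.21 to 0.31. The C/EBP-ATF element was found in 5 of 12 promoters of this list (41.7%), in 3 of 12 of the synthesis genes (25%) and in 3 of 11 of the transporters (27.3%).

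Genes of autophagy and the lysosome, the organelle that digests proteins and lipids, moved the same way. Of 23 tested, 18 fell, 1 rose and 4 did not pass (median -0.95). Relative to Mock, the list stood at 0.98 in Auxin and at -0.029 in Reintroduction by its median. In Reintroduction, 9 of its members were called higher than Mock and 9 lower. Hexa, a lysosomal hexosaminidase, stood at 139, 159 and 138 CPM in Auxin and at 27.5, 26.1 and 27.8 CPM in Reintroduction. The Mock mean was 21.9 CPM, and the change was -2.42 ± 0.0722 (SE, adjusted p = 1.61e-09). Mcoln1, a lysosomal calcium channel, went from 81.4, 81.2 and 80.7 CPM to 24.8, 24.8 and 27.1 CPM (-1.67 ± 0.0533 SE, adjusted p = 2.63e-09). Flcn and Rragd, which act in nutrient signalling at the lysosomal surface, changed by -1.57 ± 0.0559 (SE, adjusted p = 4.98e-09) and -0.89 ± 0.0458 (SE, adjusted p = 7.15e-08). The transcripts of the factors Tfeb (0.013 ± 0.0645, adjusted p = 0.889) and Tfe3 (0.086 ± 0.0497, adjusted p = 0.176), named after their values were seen, did not pass the test. The palindrome TCACGTGA, the core of the element these factors are known to bind, was present in 2 of 18 promoters of the list (11.1%) and in 1.12% of all.

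Cholesterol synthesis moved in the opposite direction, and every tested gene of it rose. This held for all 9 genes from acetyl-CoA to squalene (median 1.65) and all 11 genes from squalene to cholesterol (median 1.51). The 20 genes had log2 fold changes from 0.48 to 2.9. In the Auxin libraries the first list stood at -1.6 and the second at -0.99 relative to Mock, and in the Reintroduction libraries at 0.35 and 0.54, as medians of the genes' own differences from Mock.

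Idi1, which isomerises isopentenyl diphosphate, stood at 19.7, 18.6 and 20.0 CPM in Auxin and at 145, 148 and 142 CPM in Reintroduction. Its rise of 2.9 ± 0.0518 (SE, adjusted p = 1.10e-10) was the largest among the synthesis genes. Hmgcs1, the cytosolic HMG-CoA synthase, went from 116, 110.4 and 115 CPM to 627, 682 and 663 CPM (2.53 ± 0.0537 SE, adjusted p = 2.07e-10), above the Mock libraries at 287, 292 and 292 CPM. Fdft1, which makes squalene, rose by 2.3 ± 0.078 (SE, adjusted p = 3.70e-09). Of the later steps, Sqle, the squalene epoxidase, stood at 66.9, 68.5 and 61.5 CPM in Auxin and at 189, 201 and 201 CPM in Reintroduction (1.59 ± 0.0559 SE, adjusted p = 4.65e-09). Cyp51, Msmo1 and Lss, the enzymes that close and trim the sterol ring, rose by 1.88 ± 0.0638 (SE, adjusted p = 3.70e-09), 1.65 ± 0.0597 (SE, adjusted p = 5.82e-09) and 1.51 ± 0.0485 (SE, adjusted p = 2.63e-09).

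The promoter of Hmgcs1 is shown because it was the sole promoter in the mevalonate list with the short form of the sterol regulatory element, TCACNCCAC on either strand, which 1.44% of all promoters hold. Of the genes of this list, 6 had a RefSeq promoter. The short form was in 0 of 9 promoters of the squalene to cholesterol list. It was in 0 of 8 for sterol sensing and uptake and in 0 of 16 for fatty acid synthesis and desaturation. Hmgcs1 was thus the only match in these lists. The match in capitals begins at position -137 (chr13:119690101-119690400, plus strand).

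Hmgcs1: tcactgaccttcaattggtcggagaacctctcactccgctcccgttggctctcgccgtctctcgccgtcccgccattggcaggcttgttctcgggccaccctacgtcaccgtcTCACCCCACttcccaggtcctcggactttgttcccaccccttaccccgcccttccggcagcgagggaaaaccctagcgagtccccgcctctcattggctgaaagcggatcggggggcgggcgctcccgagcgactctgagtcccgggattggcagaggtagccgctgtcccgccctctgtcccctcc

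The full element, which is the short form with C at its open base and A before it, was in 0 of the promoters of the 4 sterol and fatty acid lists and in 0.0999% of all, which says only that these letters are not in these windows.

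Genes that sense or take up sterols were split. Of 12 tested, 7 rose, 3 fell and 2 did not pass (median 0.62). Insig1, which retains the SREBP precursors in the endoplasmic reticulum and is itself an SREBP target, stood at 20.5, 22.3 and 20.6 CPM in Auxin and at 130.2, 128 and 132 CPM in Reintroduction. That rise, 2.62 ± 0.0533 (SE, adjusted p = 1.61e-10), placed all 3 washed libraries above the Mock mean of 100.1 CPM. Stard4, a sterol carrier, rose by 1.5 ± 0.0618 (SE, adjusted p = 1.44e-08). Srebf2 stood at 105, 115 and 102 CPM in Auxin and at 208, 213 and 218 CPM in Reintroduction (0.99 ± 0.0556 SE, adjusted p = 1.40e-07). Srebf1, which shares exon sequence with another gene, rose by 0.75 ± 0.0503 (SE, adjusted p = 5.07e-07). The genes that fell were Npc2 and Npc1, which move cholesterol out of the lysosome, and Insig2, with log2 fold changes of -1.0, -0.26 and -0.28 (named after their values were seen).

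Sterol export went down while synthesis went up. Of 6 tested genes, 5 fell and 1 rose (median -0.77). The cholesterol pump Abca1 stood at 154, 100.4 and 149.7 CPM in Auxin and at 40.1, 43.4 and 43.3 CPM in Reintroduction. It remained above the Mock mean of 17.8 CPM after a change of -1.67 ± 0.138 (SE, adjusted p = 2.42e-06). Abcg1, a second pump, went from 11, 11 and 10.4 CPM to 5.29, 5.95 and 5 CPM (-1.0 ± 0.0809 SE, adjusted p = 2.14e-06), and Nr1h3, the oxysterol receptor LXRα, changed by -0.72 ± 0.138 (SE, adjusted p = 0.00117).

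Fatty acid synthesis and desaturation rose with the sterol genes, with 14 of 19 higher, 2 lower and 3 not passing (median 0.7). Scd2, the stearoyl-CoA desaturase with the highest change of the list, stood at 184, 196 and 176 CPM in Auxin and at 869, 925 and 893 CPM in Reintroduction (2.27 ± 0.0576 SE, adjusted p = 6.33e-10). Fasn, the fatty acid synthase, went from 167, 169.5 and 165 CPM to 405, 446 and 450 CPM (1.38 ± 0.0551 SE, adjusted p = 1.12e-08), still below its Mock mean of 562 CPM. Fads2, a desaturase, and Acsl3, an acyl-CoA synthetase, rose by 1.31 ± 0.0651 (SE, adjusted p = 5.27e-08) and 1.29 ± 0.0832 (SE, adjusted p = 4.02e-07).

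Chaperones of both compartments rose. In the endoplasmic reticulum list, 15 of 22 tested genes rose, 3 fell and 4 did not pass (median 0.63). Hspa5, which encodes the chaperone BiP, stood at 470.4, 471 and 452 CPM in Auxin and at 1604, 1544 and 1606 CPM in Reintroduction. Its rise of 1.77 ± 0.0513 (SE, adjusted p = 1.32e-09) took it past the Mock libraries, at 833, 794 and 802 CPM. Hsp90b1 went from 399.5, 315 and 405 CPM to 1027, 1004 and 989 CPM (1.43 ± 0.0867 SE, adjusted p = 2.50e-07). Manf, a secreted chaperone, and Pdia6, a disulfide isomerase, rose by 1.85 ± 0.0903 (SE, adjusted p = 4.73e-08) and 1.13 ± 0.071 (SE, adjusted p = 3.34e-07). Xbp1, counted over all its splice forms, stood at 58.4, 62.6 and 54.8 CPM in Auxin and 66, 63 and 64.6 CPM in Reintroduction and did not pass the test (0.14 ± 0.0649 SE, adjusted p = 0.0944). It passed without Auxin replicate 2, at 0.175 (adjusted p = 0.018), and with length and GC trends removed, at 0.194 (adjusted p = 0.00425).

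The promoter of Hspa5 is shown for its endoplasmic reticulum stress element, a CCAAT box and a CCACG box set apart by 9 bases of any kind, searched on both strands. It was found in 9 of 17 promoters of this list (52.9%) and in 0.137% of all promoters. In Hspa5 (chr2:34771840-34772139, plus strand) the match in capitals begins at position -65.

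Hspa5: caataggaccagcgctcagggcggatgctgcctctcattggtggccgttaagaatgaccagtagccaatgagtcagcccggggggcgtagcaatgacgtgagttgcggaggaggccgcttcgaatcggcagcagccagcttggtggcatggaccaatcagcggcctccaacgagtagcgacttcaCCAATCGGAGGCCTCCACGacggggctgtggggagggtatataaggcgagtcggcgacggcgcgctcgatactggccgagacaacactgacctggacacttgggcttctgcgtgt

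Herpud1, another gene of this organelle, is in the stress response list above and fell.

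In the cytosolic heat shock list, 17 of 22 tested genes rose, 3 fell and 2 did not pass (median 0.78). The inducible chaperone gene Hspa1b stood at 2.54, 2.51 and 2.76 CPM in Auxin and at 24, 24.5 and 26.8 CPM in Reintroduction. The rise of 3.27 ± 0.0733 (SE, adjusted p = 3.26e-10) took it above the Mock libraries, at 12.1, 12 and 12.1 CPM. Its near copy Hspa1a rose by 3.19 ± 0.147 (SE, adjusted p = 3.07e-08), but how reads that fit both genes were assigned is not given in the sources used here, so the level of each is uncertain. The constitutive chaperone Hspa8 went from 573, 675 and 547 CPM to 2505, 2507 and 2577 CPM (2.08 ± 0.0775 SE, adjusted p = 6.90e-09). Hsph1, a nucleotide exchange factor for these chaperones, went from 178, 189.9 and 169 CPM to 604, 597 and 613 CPM (1.75 ± 0.0552 SE, adjusted p = 2.41e-09), and the co-chaperone Dnaja1 rose by 1.37 ± 0.0501 (SE, adjusted p = 6.30e-09). Hsf1, the factor that drives these genes, stood at 40.0, 40.8 and 39 CPM in Auxin and at 38.9, 38.4 and 37.9 CPM in Reintroduction and did not pass (-0.056 ± 0.0472 SE, adjusted p = 0.35). It passed in 2 of the alternative settings, with total counts as the scale (-0.136, adjusted p = 0.0292) and with a minimum of 1 CPM (-0.105, adjusted p = 0.0371).

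A heat shock element, GAA, TTC and GAA in turn with 2 bases of any kind between them, on either strand, was present in 4 of 17 promoters of this list (23.5%) and in 0.662% of all. The promoter of Hsph1 is shown (chr5:149636287-149636586, minus strand), in which the match in capitals lies on the opposite strand and begins at position 36, after the start.

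Hsph1: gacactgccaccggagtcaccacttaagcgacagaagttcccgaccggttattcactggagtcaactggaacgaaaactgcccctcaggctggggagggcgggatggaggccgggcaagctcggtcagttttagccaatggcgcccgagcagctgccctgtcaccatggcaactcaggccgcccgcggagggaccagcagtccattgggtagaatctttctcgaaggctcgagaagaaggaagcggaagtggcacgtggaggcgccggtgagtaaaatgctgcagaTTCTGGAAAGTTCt

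**Figure D3:**
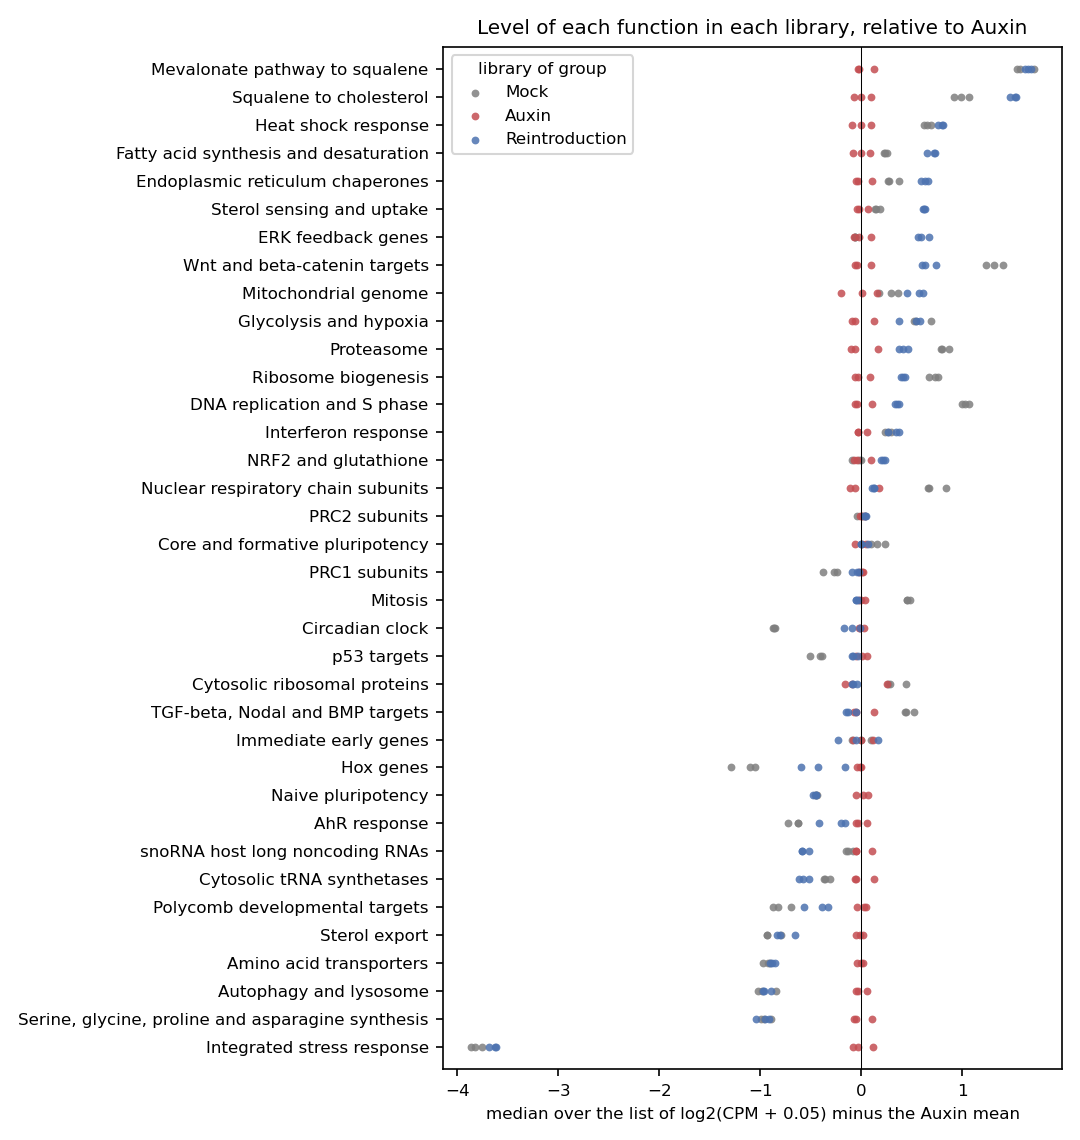
Level of 36 gene lists in each of the 9 libraries, as the median over tested members of log2(CPM + 0.05) minus the mean of the Auxin libraries. By these medians, the washed libraries lie close to Mock for the stress response and lysosome lists, whose members differ from Mock in both directions. The washed libraries lie beyond Mock for the endoplasmic reticulum chaperones and short of Mock for the replication and proteasome lists. Levels are not corrected for the length trends of the libraries.

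Ribosome biogenesis, proteasome and replication genes were low in Auxin and by their medians moved part of the way to Mock. Myc, a transcription factor for growth genes, stood at 6.34, 7.18 and 7.1 CPM in Auxin and at 24.6, 23.8 and 28.2 CPM in Reintroduction. All washed libraries were above all Auxin libraries, by 1.9 ± 0.0865 (SE, adjusted p = 2.86e-08), and below the Mock libraries, at 72.3, 66 and 63.2 CPM. Among ribosome biogenesis genes, 17 of 26 rose, 2 fell and 7 did not pass (median 0.4). Nolc1, a nucleolar phosphoprotein, went from 130.3, 148 and 129 CPM to 228, 234 and 244 CPM (0.8 ± 0.0622 SE, adjusted p = 1.63e-06), and the processing factors Bop1, Ddx21 and Rrp1b rose by 0.9 ± 0.0602 (SE, adjusted p = 4.99e-07), 0.79 ± 0.0575 (SE, adjusted p = 9.90e-07) and 0.57 ± 0.0503 (SE, adjusted p = 4.19e-06).

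Of 78 cytosolic ribosomal protein genes, 65 did not pass, 10 fell and 3 rose (median -0.066). Rpl13a changed by -0.76 ± 0.0948 (SE, adjusted p = 5.84e-05) and Rpl12 by -0.67 ± 0.0778 (SE, adjusted p = 3.47e-05). These short and abundant transcripts followed the choice of libraries. Without Auxin replicate 2, the number that rose was 15 and the median was 0.055, and with length and GC trends removed 31 fell.

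Proteasome subunits rose in 25 of 31 cases, with 0 lower and 6 not passing (median 0.43). Psmd12 stood at 103, 113 and 98.1 CPM in Auxin and at 156, 161 and 159 CPM in Reintroduction (0.6 ± 0.0568 SE, adjusted p = 6.96e-06), short of its Mock mean of 219 CPM. Psmd1, Psma3 and Psmd13 rose by 0.57 ± 0.0552 (SE, adjusted p = 8.21e-06), 0.54 ± 0.0516 (SE, adjusted p = 7.00e-06) and 0.52 ± 0.0621 (SE, adjusted p = 3.84e-05).

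Genes of DNA replication and the entry into S phase rose in 23 of 30 cases, with 0 lower and 7 not passing (median 0.33). The list stood at -1.04 relative to Mock in Auxin and at -0.69 in Reintroduction. Cdc25a, the phosphatase that activates Cdk2, stood at 32.1, 33.4 and 31.9 CPM in Auxin and at 72.3, 73 and 73.9 CPM in Reintroduction (1.17 ± 0.0458 SE, adjusted p = 9.63e-09). Ccne1, cyclin E1, went from 32.4, 39.5 and 32.8 CPM to 88.3, 85.6 and 85.1 CPM (1.31 ± 0.0771 SE, adjusted p = 2.05e-07), with 215, 199 and 196 CPM in Mock. Cdc6, which loads the replicative helicase, and the factor E2f2 rose by 1.36 ± 0.0643 (SE, adjusted p = 3.84e-08) and 1.27 ± 0.0696 (SE, adjusted p = 1.18e-07). The helicase subunits Mcm2 to Mcm7, grouped after their values were seen, moved less, with 4 of 6 higher and log2 fold changes from -0.053 to 0.45.

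The E2F sites TTTGGCGC and TTTCCCGC, searched on both strands, were in 7 (28%) and 5 (20%) of 25 promoters of the list, and in 0.585% and 1.24% of all promoters, with Mcm3 holding both. The promoter of Cdc25a is shown with its TTTGGCGC match in capitals, which begins at position -67 (chr9:109875329-109875628, plus strand).

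Cdc25a: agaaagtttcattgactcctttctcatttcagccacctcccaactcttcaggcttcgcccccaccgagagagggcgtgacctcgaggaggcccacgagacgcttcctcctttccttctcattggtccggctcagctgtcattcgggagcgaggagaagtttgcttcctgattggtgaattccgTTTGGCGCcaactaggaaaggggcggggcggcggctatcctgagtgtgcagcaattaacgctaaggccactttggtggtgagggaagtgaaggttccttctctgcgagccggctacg

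Mitotic genes gave no such pattern. Of 28 tested, 7 rose, 12 fell and 9 did not pass (median -0.06). Prc1 and Nusap1, which organise the spindle, and the phosphatase Cdc25c changed by -0.54 ± 0.0588 (SE, adjusted p = 2.10e-05), -0.44 ± 0.0487 (SE, adjusted p = 2.20e-05) and -0.38 ± 0.0707 (SE, adjusted p = 9.31e-04), whereas the kinase Aurkb rose by 0.57 ± 0.065 (SE, adjusted p = 2.81e-05). The counts moved with single libraries, to 7 and 6 lower without Reintroduction replicate 1 or 2 and to 2 higher with total counts as the scale, and the median reversed to 0.00164 without Auxin replicate 3.

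Glycolytic and hypoxia genes, 22 in all, rose in 15 cases and fell in 3, and 4 did not pass (median 0.54). Ldha, lactate dehydrogenase A, stood at 67.2, 84.4 and 68.7 CPM in Auxin and at 244, 225 and 187 CPM in Reintroduction (1.57 ± 0.109 SE, adjusted p = 6.69e-07). It remained below the Mock libraries, at 679.8, 627 and 620 CPM. The glucose carrier Slc2a1 went from 157, 178 and 159 CPM to 358, 323 and 314 CPM (1.01 ± 0.0677 SE, adjusted p = 5.33e-07), above its Mock mean of 210.3 CPM, and Pfkl, liver-type phosphofructokinase, rose by 0.8 ± 0.0661 (SE, adjusted p = 2.53e-06). Vegfa, a growth factor for vessels that responds to both hypoxia and Atf4, went the other way, from 131, 112 and 137 CPM to 25, 22.4 and 19.1 CPM (-2.51 ± 0.105 SE, adjusted p = 1.71e-08), and stayed above its Mock mean of 2.3 CPM.

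Protein-coding genes of the mitochondrial genome rose in 11 of 13 cases (median 0.54), and the share of all counts from the mitochondrial chromosome was 3.79% to 3.96% in the Auxin libraries and 4.58% to 4.80% in the Reintroduction libraries. mt-Nd1, a subunit of complex I, stood at 2417, 1967 and 2488 CPM in Auxin and at 4385, 4447 and 4230 CPM in Reintroduction (0.93 ± 0.0856 SE, adjusted p = 5.78e-06). mt-Nd2 rose by 1.13 ± 0.0931 (SE, adjusted p = 2.45e-06). As a pattern over the list this did not survive removal of the length and GC trends within libraries, after which the median was -0.000135, 4 rose and 4 fell, and mt-Nd3, at 0.9 ± 0.0877 (SE, adjusted p = 8.80e-06) before, gave 0.0649 (adjusted p = 0.551). mt-Nd1 and mt-Nd2 kept their calls with smaller changes, 0.464 (adjusted p = 8.74e-06) and 0.544 (adjusted p = 1.27e-05). Among the nuclear subunits of the respiratory chain, 11 of 43 rose, 2 fell and 30 did not pass. Cox5a and Ndufs1 rose by 0.8 ± 0.0757 (SE, adjusted p = 6.94e-06) and 0.35 ± 0.0488 (SE, adjusted p = 1.28e-04). Without Auxin replicate 2 the number that rose was 27.

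Among sensors of chemicals and damage, Cyp1a1 gave the clearest fall. Cyp1a1 is the classic target of the aryl hydrocarbon receptor, a factor for which indole compounds are known ligands. It stood at 5.53, 5.89 and 5.4 CPM in Auxin and at 0.602, 0.668 and 0.564 CPM in Reintroduction. The Mock libraries were at 0.466, 0.435 and 0.49 CPM, and the change was -3.21 ± 0.121 (SE, adjusted p = 7.34e-09). Ahrr, the repressor that the receptor induces, went from 3.1, 3.04 and 2.94 CPM to 1.24, 1.29 and 1.09 CPM (-1.33 ± 0.143 SE, adjusted p = 1.87e-05). Ahr itself had a mean of 2.74 CPM in Mock. It stood at 7.65, 6.25 and 8.02 CPM in Auxin and 8.21, 7.2 and 7.57 CPM in Reintroduction and did not pass (0.072 ± 0.0999 SE, adjusted p = 0.584). Its sign reversed with total counts as the scale (-0.00908) and without Auxin replicate 2 (-0.0429). Of 8 tested genes of this list, 4 fell and 0 rose (median -0.48, or -0.17 without Auxin replicate 1). Of the 4, Aldh3a1 went from 0.293, 0.223 and 0.307 CPM to 0.163, 0.178 and 0.11 CPM (-0.89 ± 0.282 SE, adjusted p = 0.0209), was already below its Mock mean of 1.26 CPM in Auxin and lost its call in 5 alternative settings. The response element TTGCGTG was in 0 of 6 promoters of the list and in 1.35% of all. Whether the auxin, itself an indole compound, acted on this receptor was not tested.

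Of 17 genes of the NRF2 and glutathione list, 8 rose, 5 fell and 4 did not pass (median 0.2). Heme oxygenase, Hmox1, went from 210, 235 and 207 CPM to 87.5, 78.8 and 82.7 CPM (-1.39 ± 0.0678 SE, adjusted p = 4.78e-08), and the factor Nfe2l2 changed by -0.62 ± 0.044 (SE, adjusted p = 8.58e-07). In contrast Gss, glutathione synthetase, and Pgd, an enzyme of the pentose phosphate pathway, rose by 0.83 ± 0.0628 (SE, adjusted p = 1.36e-06) and 0.72 ± 0.0591 (SE, adjusted p = 2.39e-06). Of 19 p53 targets, 9 fell, 2 rose and 8 did not pass (median -0.065). Gadd45a went from 65.3, 74 and 65.6 CPM to 22.9, 22.2 and 24.8 CPM (-1.55 ± 0.0912 SE, adjusted p = 1.99e-07) and the cell cycle inhibitor Cdkn1a from 199, 232 and 190.3 CPM to 109, 108 and 109 CPM (-0.93 ± 0.0708 SE, adjusted p = 1.36e-06). Mdm2, the ligase for p53, changed by -0.57 ± 0.0501 (SE, adjusted p = 4.25e-06) and Sesn1 rose by 0.92 ± 0.0614 (SE, adjusted p = 5.32e-07).

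Targets of signalling pathways moved by gene more than by list. Cyclin D1, Ccnd1, listed under both the ERK and the Wnt pathways, stood at 19.7, 21.1 and 19.4 CPM in Auxin and at 88.1, 91.2 and 91.9 CPM in Reintroduction. Its rise of 2.17 ± 0.0552 (SE, adjusted p = 6.33e-10) left it below the Mock libraries, at 153, 164 and 159 CPM. Of 13 ERK feedback genes, 7 rose, 2 fell and 4 did not pass (median 0.61), with Etv4 and Phlda1 higher by 0.97 ± 0.0767 (SE, adjusted p = 1.79e-06) and 1.57 ± 0.113 (SE, adjusted p = 9.07e-07). The phosphatase Dusp4 went the other way, from 17, 17.3 and 15.9 CPM to 5.91, 6.3 and 6.65 CPM (-1.41 ± 0.0813 SE, adjusted p = 1.70e-07). The inhibitor of MEK was in the medium of all groups.

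Of 14 Wnt and β-catenin targets, 7 rose, 1 fell and 6 did not pass (median 0.58). Sp5 went from 8.5, 10.1 and 8.02 CPM to 20.5, 22.6 and 22.7 CPM (1.3 ± 0.0978 SE, adjusted p = 1.22e-06). Tcf7 and Axin2, a feedback inhibitor of the pathway, rose by 1.08 ± 0.0715 (SE, adjusted p = 4.72e-07) and 0.86 ± 0.0506 (SE, adjusted p = 1.98e-07). Of 14 targets of TGF-β, Nodal and BMP, 3 rose, 4 fell and 7 did not pass. Bmp4 and Smad6 rose by 0.85 ± 0.0551 (SE, adjusted p = 4.29e-07) and 1.44 ± 0.156 (SE, adjusted p = 2.01e-05), and the Nodal inhibitor Lefty1 fell from 6.53, 8.34 and 6.09 CPM to 3.36, 2.32 and 2.77 CPM (-1.29 ± 0.173 SE, adjusted p = 9.76e-05), away from its Mock mean of 38.2 CPM. Immediate early genes, which respond to stimuli within minutes, were mixed, with 6 of 19 higher, 8 lower and 5 not passing. Nr4a1 rose by 1.03 ± 0.0484 (SE, adjusted p = 3.83e-08) and Klf10 changed by -1.11 ± 0.0479 (SE, adjusted p = 2.00e-08).

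Naive pluripotency factors fell. Of 16 tested, 13 were lower, 2 higher and 1 did not pass (median -0.47), and the list stood at 0.45 relative to Mock in Auxin and at 0.049 in Reintroduction. Klf5 stood at 182, 159 and 166 CPM in Auxin and at 64.9, 65.7 and 67.9 CPM in Reintroduction (-1.35 ± 0.0603 SE, adjusted p = 2.46e-08). Klf4 went from 603, 579 and 569.6 CPM to 367, 366 and 351 CPM (-0.69 ± 0.0496 SE, adjusted p = 8.72e-07), with a Mock mean of 335 CPM. Tfap2c and Stat3, the factor downstream of LIF, changed by -0.95 ± 0.0577 (SE, adjusted p = 2.66e-07) and -0.58 ± 0.0478 (SE, adjusted p = 2.51e-06).

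Of 15 core and formative pluripotency genes, 6 rose, 4 fell and 5 did not pass. Sox2 went from 761, 751 and 737 CPM to 451, 459 and 447 CPM (-0.73 ± 0.0469 SE, adjusted p = 3.91e-07). Dnmt3b, a DNA methyltransferase that rises on exit from the naive state, went from 43.4, 43.6 and 40.4 CPM to 92.6, 99.3 and 101 CPM (1.2 ± 0.0547 SE, adjusted p = 2.85e-08), above its Mock mean of 57 CPM. Lin28a, an RNA-binding protein, and Utf1 rose by 1.02 ± 0.0719 (SE, adjusted p = 7.87e-07) and 1.03 ± 0.0811 (SE, adjusted p = 1.75e-06). Pou5f1, named after its values were seen, stood at 551, 639 and 559 CPM and 564, 559.8 and 609 CPM in the 2 groups and did not pass (-0.013 ± 0.074 SE, adjusted p = 0.901).

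Transcripts of Polycomb subunits had small differences. Of 12 PRC2 genes, 4 rose, 3 fell and 5 did not pass (median 0.0095). Epop, a facultative subunit, went from 172, 187 and 159 CPM to 249, 254 and 257 CPM (0.55 ± 0.0799 SE, adjusted p = 1.71e-04), the core subunit Eed and the histone-binding Rbbp7 rose by 0.22 ± 0.0459 (SE, adjusted p = 0.00185) and 0.26 ± 0.0708 (SE, adjusted p = 0.00944), and Ezh1, a catalytic subunit, changed by -0.24 ± 0.0503 (SE, adjusted p = 0.00233). The number that fell was between 1 and 6 over the alternative settings. Of 23 PRC1 genes, 6 rose, 9 fell and 8 did not pass (median -0.038). Cbx2, a reader of the PRC2 mark, rose by 0.93 ± 0.0602 (SE, adjusted p = 4.13e-07) and the recruiting demethylase Kdm2b by 0.6 ± 0.0615 (SE, adjusted p = 1.28e-05), while Bcor changed by -0.61 ± 0.0498 (SE, adjusted p = 2.26e-06).

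Developmental genes known as Polycomb targets were mostly at low levels. Of 63 listed, 38 passed the filter on low counts, 15 of which fell, 6 rose and 17 did not pass the test (median -0.57). Those that passed the filter are not a count over the whole list, and 22 of them were under 1 CPM in both groups. With at least 1 CPM required in 3 libraries, 7 fell and the median was -0.29, and without Auxin replicate 3 the median was -0.36. Relative to Mock the list stood at 0.94 in Auxin and at 0.32 in Reintroduction. Gata4, an endoderm factor, stood at 6.7, 7.44 and 6.92 CPM in Auxin and at 3.65, 3.45 and 3.6 CPM in Reintroduction (-0.97 ± 0.102 SE, adjusted p = 1.50e-05), with 1.71, 1.47 and 1.92 CPM in Mock. Foxa2 went from 1.39, 1.35 and 1.31 CPM to 0.414, 0.29 and 0.343 CPM (-1.92 ± 0.238 SE, adjusted p = 5.31e-05) and Irx3 from 1.06, 1.68 and 1.45 CPM to 0.402, 0.535 and 0.539 CPM (-1.51 ± 0.23 SE, adjusted p = 2.47e-04). Eomes, a T-box factor and the most abundant gene of the list, moved the other way. Its levels were 25.4, 26.9 and 24.6 CPM in Auxin and 66.2, 68.8 and 65.8 CPM in Reintroduction, a rise of 1.38 ± 0.0534 (SE, adjusted p = 8.91e-09) to above the Mock libraries, at 35.9, 34.5 and 35.8 CPM.

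Hox genes, which pattern the body axis, were likewise at low levels. Of 39 genes, 26 were tested, 10 fell, 5 rose and 11 did not pass (median -0.41). That median was -0.62 without Auxin replicate 2 and -0.73 without Reintroduction replicate 3. The summed level of the list differed little, at 88.15 to 90.4 CPM in Auxin and 86.3 to 87.4 CPM in Reintroduction, with 44.8 to 45.7 CPM in Mock. A gene that passed the filter on low counts through the Auxin libraries alone would tend to be lower elsewhere. Which genes passed in that way was not examined, so these counts are a description only. The split by cluster, made after the values were seen, put all 5 that rose in the C cluster, where 9 genes were tested and 1 fell (median 0.42). In the A, B and D clusters together 17 were tested, 0 rose and 9 fell (median -1.01). No test of the difference between clusters was made. Hoxc11 stood at 6.44, 7.57 and 6.4 CPM in Auxin and at 12.3, 11.5 and 11.3 CPM in Reintroduction (0.79 ± 0.0885 SE, adjusted p = 2.64e-05), further from its Mock mean of 4.24 CPM. Hoxd8 went from 2.99, 2.19 and 2.85 CPM to 0.665, 0.847 and 0.956 CPM (-1.7 ± 0.198 SE, adjusted p = 3.37e-05), Hoxa7 from 2.95, 2.39 and 2.53 CPM to 1.37, 1.2 and 1.08 CPM (-1.11 ± 0.141 SE, adjusted p = 6.68e-05) and Hoxa5 changed by -1.8 ± 0.23 (SE, adjusted p = 6.80e-05). Without Reintroduction replicate 3, or with genes that share exon sequence left out, the number that rose was 3.

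**Figure D4:**
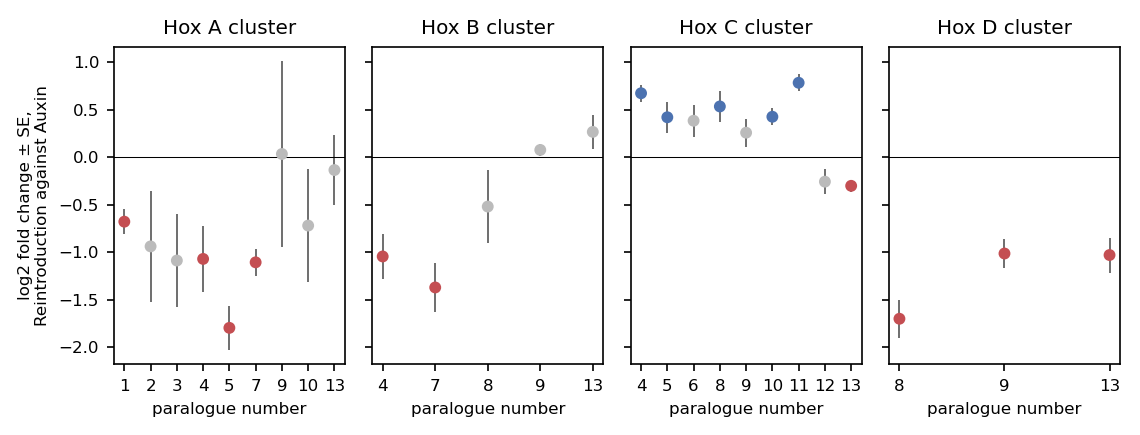
Log2 fold change of Reintroduction against Auxin (± SE) for the 26 tested Hox genes, by cluster and paralogue number. Blue points were called higher, red points lower and grey points did not pass. The 5 genes called higher lie in the C cluster, and the genes called lower lie mostly in the A, B and D clusters.

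Markers of other cell types were followed because bulk counts cannot tell fewer cells of a type from less RNA per cell. Primitive endoderm markers fell in 6 of 10 tested cases and rose in 1, and their summed level went from 58.7 to 59.6 CPM over the Auxin libraries to 50.2 to 50.5 CPM over the Reintroduction libraries. The most abundant, Lamb1, stood at 33.8, 32.3 and 31.2 CPM and 29.5, 30.9 and 30.6 CPM (-0.1 ± 0.0527 SE, adjusted p = 0.151). Gata4 and Foxa2, described above, belong to this list as well, and the part of these cells in their fall was not tested. Trophoblast markers rose in 4 of 8 tested cases, from a sum of 83.9 to 92.0 CPM to a sum of 155 to 158 CPM, with Eomes the most abundant and Tpbpa at 0 in all libraries. Their part in the rise of Eomes was not tested. Fibroblast markers summed to 44.2 to 53.5 CPM and 41.0 to 42.3 CPM, nearly all from Thy1 (38.7, 45.8 and 39.2 CPM and 37, 37.2 and 38.4 CPM), with S100a4 and Twist2 at 0. Neural progenitor markers summed to 82.4 to 98.8 CPM and 81.1 to 83.6 CPM, mostly from Tubb3 (68, 83.7 and 67.2 CPM and 63.2, 62.4 and 64.5 CPM), with Neurog2 at 0. The markers of cells resembling the 2-cell embryo summed to at most 0.113 CPM in any of the 6 libraries. In the list of embryonic stem cell markers, Nanog, the most abundant, went from 1148, 1243 and 1074 CPM to 899, 881 and 889.9 CPM (-0.38 ± 0.0612 SE, adjusted p = 3.91e-04).

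Outside these lists, genes of varied roles had the largest rises and falls among called genes with non-overlapping groups and a minimum mean level. That minimum is given with the data processing. These genes are not the extremes over all genes tested, where the log2 fold change reached 6.56 and Gm45847 changed by -4.91. Fgfbp1, a secreted carrier of fibroblast growth factors, stood at 6.12, 7.39 and 6.5 CPM in Auxin and at 52.8, 53.5 and 61.3 CPM in Reintroduction (3.07 ± 0.0891 SE, adjusted p = 1.32e-09), above the Mock libraries at 17.7, 17.6 and 16.3 CPM. Nkx1-2, a homeobox gene of the early embryo, went from 1.33, 1.61 and 1.12 CPM to 11.5, 12.7 and 11.5 CPM (3.12 ± 0.106 SE, adjusted p = 3.70e-09), below its Mock mean of 30.2 CPM, and shares exon sequence with another gene. Krt19, a keratin, and Edn1, which encodes endothelin-1, rose by 2.59 ± 0.0884 (SE, adjusted p = 3.70e-09) and 3.05 ± 0.163 (SE, adjusted p = 9.59e-08). The processed pseudogenes Gm13502 and Gm37784 rose by 3.09 ± 0.0798 (SE, adjusted p = 6.33e-10) and 2.77 ± 0.0834 (SE, adjusted p = 1.68e-09). A processed pseudogene can draw reads from its parent gene.

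Among the falls, Hrk, which encodes a pro-apoptotic BH3-only protein, stood at 68, 71.3 and 63.4 CPM in Auxin and at 2.71, 1.96 and 2.11 CPM in Reintroduction (-4.88 ± 0.125 SE, adjusted p = 6.33e-10), with a Mock mean of 1.96 CPM. Col26a1, a collagen gene, went from 5.96, 6.4 and 6.11 CPM to 0.376, 0.29 and 0.208 CPM (-4.39 ± 0.17 SE, adjusted p = 8.97e-09). Ubap1l and Trim66, a chromatin-associated TRIM protein, changed by -4.2 ± 0.143 (SE, adjusted p = 3.73e-09) and -4.2 ± 0.2 (SE, adjusted p = 4.10e-08). Their washed libraries lay at 0.715, 0.579 and 0.711 CPM and at 0.602, 0.78 and 0.564 CPM, against Auxin means of 12.5 and 11.6 CPM.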

How the data were processed

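The authors deposited raw read counts, 1 table per library with 48440 genes and no normalization. The tool was featureCounts 2.0.6, per the file headers, run on mm10 exons summed by gene identifier without a strand setting and with each mate of a pair counted. By default, reads matching several genes, or marked as multi-mapping, are left out; whether the alignments carried such marks is not given in the sources used here. The submitters' processing notes also name Trim Galore 0.6.10, FastQC 0.12.1, Bowtie2 2.5.3 and SAMtools 1.20, without their settings. Without strand, counts are uncertain for the 9924 genes whose exons overlap another gene, 5798 of them among the genes tested. The overlap is marked above for a few genes only. Other named genes have it too, among them Mars, Cars, Yars, Hspa8, Hsp90b1, Scd2 and Ccnd1. In the mitochondrial genome list, 10 of 13 genes have it.

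Gene identifiers were matched to symbols for 48058 genes. Genes passing edgeR's filterByExpr (20838) entered 1 quasi-likelihood fit of all 9 libraries with group as the only term (R 4.3.3, edgeR 4.0.16, limma 3.58.1), after checks on simulated data. Tests were two-sided, and the p-values set each difference against the spread between replicate libraries, estimated over all 9 libraries. Which sources of variation that spread covers is not given in the labels. The common coefficient of variation was 9.15% and the median standard error 0.106. Promoter sequences and starts are RefSeq's (GRCm38.p6). Of the lists, 4 members could not be matched to the tables (Snhg4, Snhg7, Snhg16 and Dux).

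The members and gene lists were chosen with earlier results of these data known. Genes are named by rule. These are the 12 largest rises and falls among called genes whose groups do not overlap and whose higher mean is 5 CPM or more, the 4 members of each function list with the smallest p, the most abundant marker of each cell type, and Suz12, Atf4, Ddit3, Srebf1, Srebf2, Hsf1, Ahr, Xbp1 and Myc. Genes named otherwise are said to be. Some genes that the rule names are not reported here. Alternatives covered scaling, filters, DESeq2 1.42.0, fewer libraries, a replicate block, length and GC trends, halved counts, and 2 added after the data were seen (genes sharing exon sequence left out, and protein-coding genes only).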

Additional observations from a re-analysis of the deposited data

How the results depend on the processing

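The count of genes called, 10613, lay between 7602 and 11581 over the other settings at the same threshold and was 2289 when a 2-fold change was also required. Leaving out each library in turn gave 9142 to 11581 calls. Genes called higher numbered 3521 once genes sharing exon sequence were left out, a setting chosen after the data were seen that also leaves fewer genes to test (15046). Scaling by total counts gave 4279 higher and 6393 lower, and removing length and GC trends 5130 higher and 6302 lower. DESeq2's Wald test called 10469. Deviations from the group means correlated at -0.0185, 0.00366 and -0.0514 for same-numbered libraries, and at -0.0306 to 0.055 for libraries of unlike number. These values show no sign of pairing by replicate number but cannot exclude it, and the labels do not state it. With a replicate block 9829 genes were called, 4943 higher and 4886 lower. Over 2908 fits of 165 named genes under alternatives, 2886 kept their direction and side of the threshold, 15 lost the call, 5 gained it and 2 reversed, both for Ahr (-0.00908 by total counts, and -0.0429 without Auxin replicate 2, in a range up to 0.144 over the libraries left out). Calls were lost by Suz12, Aldh3a1, mt-Nd3 and Cox7b. Several list medians near 0 changed sign. Among the medians that reversed were the fibroblast markers without a filter (0.859), the immediate early genes without a filter (0.0438) and with halved counts (0.0181), the mitochondrial genome with length and GC trends removed (-0.000135) and with the replicate block as well (-0.00111), and mitosis without Auxin replicate 3 (0.00164, with -0.0907 at the other end of that range). The cause was not tested. Halving the counts left 10498 calls among 18937 genes tested.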

Other observations

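Of 17 circadian clock genes, 7 fell, 3 rose and 7 did not pass (median -0.061). Bhlhe41, a clock repressor, stood at 8.21, 7.49 and 7.22 CPM in Auxin and at 0.828, 0.512 and 0.784 CPM in Reintroduction (edgeR quasi-likelihood, -3.38 ± 0.145 SE, adjusted p = 2.00e-08), above its Mock mean of 0.42 CPM. Its relative Bhlhe40 changed by -1.09 ± 0.0706 (SE, adjusted p = 4.19e-07) and Ciart by -2.19 ± 0.105 (SE, adjusted p = 4.17e-08), while Nr1d1, the repressor REV-ERBα, rose from 1.62, 1.9 and 1.61 CPM to 6.02, 6.5 and 6.69 CPM (1.9 ± 0.0967 SE, adjusted p = 6.47e-08). The labels give no time of day for the libraries.

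Of 22 interferon response genes listed, 13 were tested, of which 6 rose, 4 fell and 3 did not pass. Changes of at least 2-fold were 2 in each direction. The guanylate-binding protein gene Gbp4 went from 0.22, 0.118 and 0.146 CPM to 1.72, 2.38 and 1.78 CPM (3.56 ± 0.242 SE, adjusted p = 5.86e-07), and Irgm1 from 1.98, 2.15 and 2.07 CPM to 5.09, 6.57 and 6.12 CPM (1.51 ± 0.111 SE, adjusted p = 1.02e-06). Both remained below their Mock means, of 2.62 CPM for Gbp4 and 7.6 CPM for Irgm1. Long noncoding RNAs that host small nucleolar RNAs fell in 7 of 10 tested cases, rose in 2 and did not pass in 1. Of the 10, 9 share exon sequence with another gene, so their counts are uncertain without strand. Zfas1 and Snhg1, both among the 9, fell. Zfas1 went from 138, 165 and 137 CPM to 63.6, 58.5 and 59.6 CPM (-1.27 ± 0.0751 SE, adjusted p = 2.02e-07), and Snhg1 changed by -1.15 ± 0.0605 (SE, adjusted p = 8.42e-08). By annotated type, 372 of 1678 long noncoding RNA genes fell and 179 rose (median -0.15). Of 3464 pseudogenes 976 rose and 382 fell (median 0.10), and reads from parent genes can be counted there.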
